A study of Mus musculus with 5 samples.

Results

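Nuclear and regulatory long noncoding RNAs were followed through an RNA immunoprecipitation (RIP) of FLAG-tagged MKRN1, a RING-domain zinc finger protein, in mouse R1 embryonic stem cells. The set was defined as 6 genes that are neither imprinted nor hosts of small nucleolar RNAs: Malat1, Neat1, Tug1, Miat, Dleu2 and Pvt1. A probe set named for that gene alone was found for 4 of the 6, Malat1, Tug1, Dleu2 and Pvt1, with 5 probe sets among 34760 on the array and 4 genes among 19937. Neat1 and Miat were not analysed here, and 1 probe set that Malat1 shares with another gene was not used.

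Long noncoding RNAs are transcribed and often spliced like messenger RNAs but encode no known protein, and many act in the nucleus. Malat1 collects in nuclear speckles, where splicing factors are stored, and its 3′ end is cut by RNase P and protected by a triple helix. Tug1 is found in the nucleus and the cytoplasm and has been linked to Polycomb repression. Dleu2 is the host transcript of the microRNA genes Mir15a and Mir16-1, and Pvt1 is the neighbour of the Myc oncogene.

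The groups, 1 array in each of 5, were an anti-FLAG RIP from the line expressing pCAGGS::FLAG:MKRN1, an anti-FLAG RIP from the line with the pCAGGS::FLAG:Ctrl construct (FLAG:Ctrl RIP), an IgG RIP from the same lysate as the first, and the inputs of these 2 lysates. All cells were male R1 cells of strain 129X1 x 129S1, G418-resistant, with constitutive expression from the pCAGGS vector, grown with LIF and serum and passaged off mouse embryonic fibroblast feeders. Each RIP used 4 mg of lysate protein, and 10 ng of RNA from every sample was made into cDNA, so a value is a share of the RNA taken and not an amount recovered. The labels do not say how many clones stand behind each line.

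Values are log2 signals per probe set, and every comparison is a difference of log2 values with no replicate, no error and no test. A gene was counted at 2-fold, a log2 difference of 1 or more. Mkrn1 did not separate the lines. Its log2 signal was 11.71 in the input of the FLAG:MKRN1 line and 11.80 in that of the FLAG:Ctrl line, and the sources used here do not say whether its probe set can read the construct. The FLAG:MKRN1 samples are therefore called the MKRN1-labelled RIP and the MKRN1-labelled input. All 10 pluripotency markers reached a log2 signal of 5.76, the middle value of the means of all probe sets, with list means of 10.6 to 11.1 over the arrays. Of 9 feeder fibroblast markers 5 did so, with list means from 5.87 to 6.01. Of 8 measured early differentiation markers 5 did so, with list means from 5.92 to 6.17. Between the inputs, 1 pluripotency marker was at least 2-fold lower in the MKRN1-labelled input, beside 0.497% of all genes. In the same comparison 1 early differentiation marker was at least 2-fold higher, beside 0.572% of all genes. The array of the MKRN1-labelled RIP stood apart, with Pearson's r of 0.959 to 0.967 to the other arrays, against 0.982 to 0.992 among those. Because cells were lysed in bulk, fewer cells carrying an RNA and less RNA per cell cannot be told apart.

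Malat1 and Tug1 had the widest range of log2 signal over the 5 arrays among the 4 genes. The starts of their genes, from RefSeq on build GRCm38.p6, are shown so that the beginning of each measured RNA can be seen. Each window runs from 250 bases before the annotated start to 50 bases after it, 5′ to 3′ on the minus strand, and capitals mark the first 50 transcribed bases. The Malat1 window is chr19:5802623-5802922 and the Tug1 window chr11:3648765-3649064.
Malat1: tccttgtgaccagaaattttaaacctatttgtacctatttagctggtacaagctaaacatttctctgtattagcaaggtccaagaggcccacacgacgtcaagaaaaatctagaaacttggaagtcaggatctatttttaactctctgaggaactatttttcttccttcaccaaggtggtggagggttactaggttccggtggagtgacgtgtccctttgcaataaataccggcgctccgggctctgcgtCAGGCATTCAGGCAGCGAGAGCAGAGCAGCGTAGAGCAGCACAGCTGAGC
Tug1: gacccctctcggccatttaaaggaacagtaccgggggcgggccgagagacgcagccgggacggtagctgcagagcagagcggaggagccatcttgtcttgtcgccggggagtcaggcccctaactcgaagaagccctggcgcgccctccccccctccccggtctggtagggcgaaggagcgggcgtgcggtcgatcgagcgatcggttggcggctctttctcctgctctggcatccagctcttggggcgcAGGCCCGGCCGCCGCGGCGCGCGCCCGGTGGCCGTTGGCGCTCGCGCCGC
The 2 starts differ in base composition. The Malat1 window is 47.0% G and C and the Tug1 window 71.3%, and 28.4% and 92.2% of 32851 RefSeq windows of the same length have less. The letters GGGCGG, searched on both strands, occur 0 times in the Malat1 window and 1 time in the Tug1 window, and 35.7% of all windows hold them. Where the array's probes lie along these RNAs is not given in the sources used here.

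Dleu2 carries 2 microRNA genes that the array also measured, Mir15a and Mir16-1. Their 5p products share a seed with that of the paralogous gene Mir15b, and Mir16-2 encodes the same mature miR-16-5p as Mir16-1. The sequences, from RefSeq, are shown because the seed is what groups this family, and capitals mark bases 2 to 8. On GRCm38.p6, miR-15a-5p lies at chr14:61632075-61632096 and miR-16-5p at chr14:61631936-61631957, both on the minus strand, and miR-15b-5p at chr3:69009775-69009796 on the plus strand.
miR-15a-5p: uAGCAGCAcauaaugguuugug
miR-16-5p: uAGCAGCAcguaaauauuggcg
miR-15b-5p: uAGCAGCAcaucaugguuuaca

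Malat1 was lower in the MKRN1-labelled RIP than on every other array. Its log2 signal was 9.50 in the MKRN1-labelled RIP, 11.21 in the FLAG:Ctrl RIP and 10.93 in the IgG RIP. The inputs had 11.93 for the MKRN1-labelled and 11.70 for the FLAG:Ctrl lysate. The MKRN1-labelled RIP was thus the lowest array and the 2 inputs the highest, with the background RIPs between. Without the MKRN1-labelled RIP the other 4 arrays spanned 1.01 on the log2 scale, against 2.43 over all 5.

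Tug1 had the same lowest array. Its log2 signal was 8.00 in the MKRN1-labelled RIP, 8.996 in the FLAG:Ctrl RIP and 9.01 in the IgG RIP. The MKRN1-labelled input had 9.20 and the FLAG:Ctrl input 9.69. The background RIPs differed by 0.02 on the log2 scale, and the MKRN1-labelled RIP lay about 2-fold under each. The 4 arrays other than the MKRN1-labelled RIP spanned 0.69.

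Pvt1 followed another order. On its brighter probe set the log2 signal was 7.27 in the MKRN1-labelled RIP, 8.01 in the FLAG:Ctrl RIP and 7.59 in the IgG RIP. It was 7.55 in the MKRN1-labelled input and 7.12 in the FLAG:Ctrl input. The FLAG:Ctrl RIP was the highest array and the input of the same lysate the lowest. The other Pvt1 probe set was dim and nearly flat. It read 3.44 in the MKRN1-labelled RIP, 3.33 in the FLAG:Ctrl RIP and 3.36 in the IgG RIP and both inputs, so the 2 probe sets of Pvt1 did not show the same pattern.

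Dleu2 was near the bottom of the signal range on every array. Its log2 signal was 3.12 in the MKRN1-labelled RIP, 2.92 in the FLAG:Ctrl RIP and 3.05 in the IgG RIP. The MKRN1-labelled input read 3.17 and the FLAG:Ctrl input 3.13. Between 0.509% and 2.13% of all probe sets read lower on the same array, and the 5 arrays spanned 0.25. No statement on the recovery of Dleu2 can be made from values this low.

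**Figure D1:**
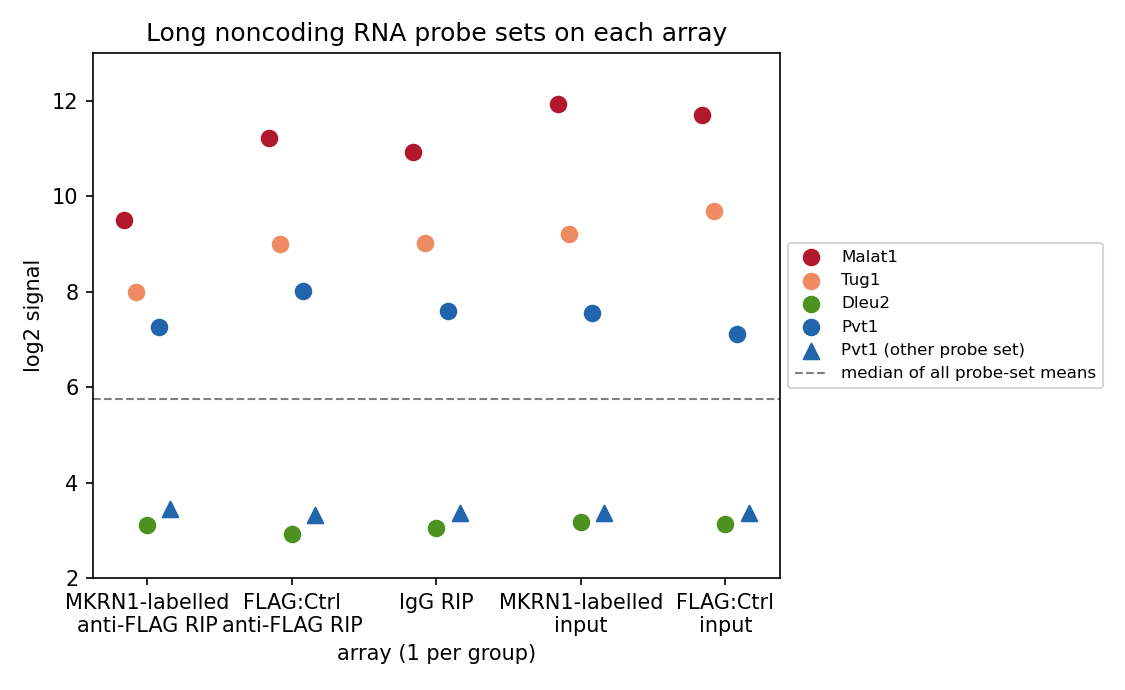
Log2 signal (vertical axis) of each of the 5 probe sets on each array (horizontal axis, 1 array per group), with 5.76, the middle of all probe-set means, dashed. Malat1 and Tug1 are lowest in the MKRN1-labelled RIP, at 9.50 and 8.00, while Dleu2 and the other Pvt1 probe set lie under 3.5 on every array.

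The comparison of the MKRN1-labelled RIP with the 2 background RIPs addresses which RNAs were recovered with the tagged protein beyond nonspecific binding. Malat1 was 3.28-fold lower than in the FLAG:Ctrl RIP (log2 difference -1.71) and 2.69-fold lower than in the IgG RIP (-1.43). Only 95 of 19937 genes had a more negative difference from the FLAG:Ctrl RIP, and 240 did from the IgG RIP. None of the 4 genes was at least 2-fold higher, where 1.12% of all genes were in the first comparison and 1.07% in the second.

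Tug1 lay at the edge of the count. Its log2 difference was -0.999 from the FLAG:Ctrl RIP, a 1.999-fold difference that falls just short of 2-fold, and -1.02 from the IgG RIP, a 2.02-fold difference. After quantile normalization the difference from the IgG RIP was -0.81, and with arrays centred on their medians that from the FLAG:Ctrl RIP was -1.20. Pvt1 was lower by less, with log2 differences of -0.74 and -0.32, and Dleu2 differed by 0.20 and 0.08. The difference of Pvt1 from the FLAG:Ctrl RIP was -0.31 with the median over its probe sets.

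Counted over the set, 1 of 4 genes was at least 2-fold lower than in the FLAG:Ctrl RIP, where 4.16% of all genes were, and 2 of 4 than in the IgG RIP, where 4.03% were. Malat1 alone was lower than both, against 3.13% of all genes, and it was also below its input, a rule that 3.1% of all genes met. Malat1 was bright, and of protein-coding genes with a mean signal at or above 5.76, 5.51% were lower than both. Of the other long noncoding RNA genes at that signal, 1.84% were. The median log2 difference of the 4 genes was -0.87 in the first comparison and -0.67 in the second, beside 0.06 and 0.05 over all genes. With arrays centred on their medians these were -1.07 and -0.85, beside -0.15 and -0.13. Both comparisons use 1 and the same array for the MKRN1-labelled RIP, and the 4 genes are too few for their share to describe a class. The balance of calls over all genes depended on scaling. Genes at least 2-fold higher made up 18.96% of those called against both background RIPs without scaling, 6.81% after centring on array medians and 31.1% after quantile normalization.

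**Figure D2:**
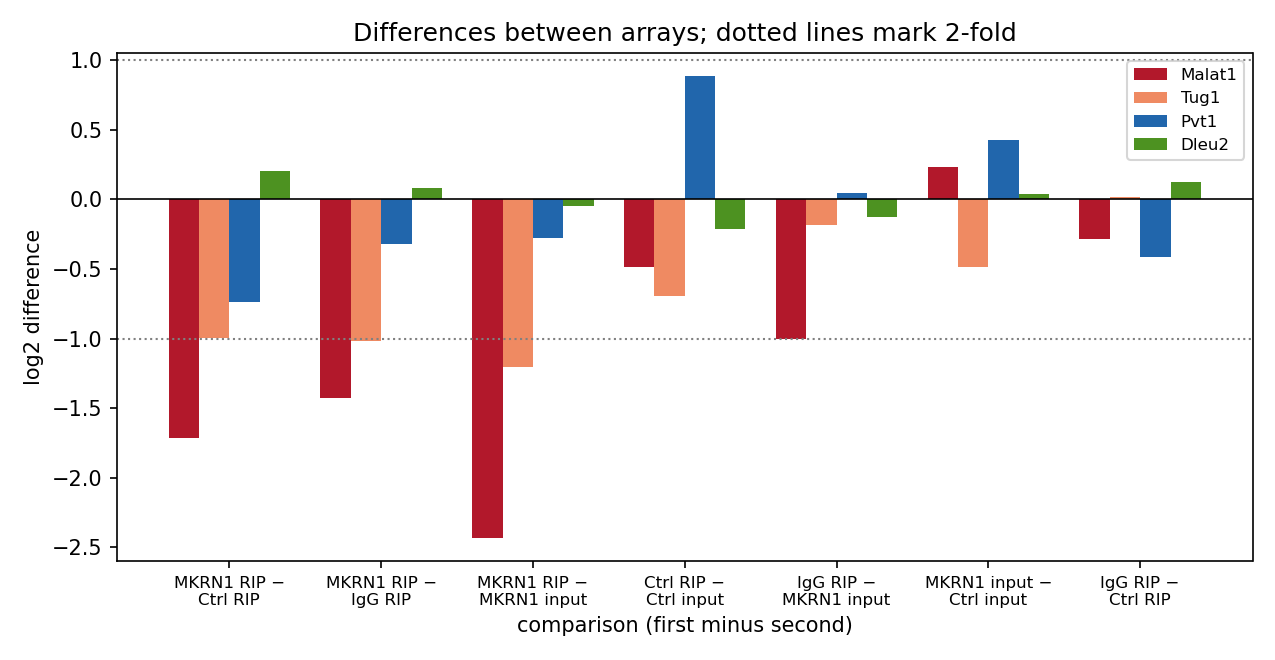
Log2 difference (vertical axis) of Malat1, Tug1, Pvt1 (brighter probe set) and Dleu2 in each of 7 comparisons (horizontal axis, first array minus second, 1 array each), with dotted lines at 2-fold. Malat1 passes -1 in every comparison of the MKRN1-labelled RIP, from -1.43 to -2.43, and Pvt1 is the only gene of the 4 near 1, at 0.88 in the FLAG:Ctrl RIP against its input.

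Relative to the input of the same lysate, Malat1 was among the lowest genes of the MKRN1-labelled RIP. The log2 difference was -2.43, a 5.40-fold lower share, and 15 of 19937 genes had a more negative value. Tug1 was 2.31-fold lower than input (-1.20), a value undercut by 388 genes. Pvt1 had -0.28 and Dleu2 -0.05. At least 2-fold below input were 2 of the 4 genes, where 3.23% of all genes were, and 0 were 2-fold above it, where 1.57% were.

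Malat1 and Tug1 were also below input in the background RIPs, a comparison that does not use the array of the MKRN1-labelled RIP. In the FLAG:Ctrl RIP, Malat1 differed by -0.49 and Tug1 by -0.69 from the FLAG:Ctrl input. In the IgG RIP, Malat1 was 2.01-fold below the MKRN1-labelled input (-1.01; -0.94 with arrays centred) and Tug1 differed by -0.19. Only 63 genes lay further below input than Malat1 in the IgG RIP, and 145 further than Tug1 in the FLAG:Ctrl RIP. Of the 4 genes, 0 were 2-fold lower in the FLAG:Ctrl RIP and 1 in the IgG RIP, where 0.261% and 0.321% of all genes were. None was 2-fold higher in them, where 0.572% and 0.798% were.

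Malat1, Tug1 and Dleu2 were below their own input in all 3 RIPs, as were 8.36% of all genes, though Dleu2 was too dim for this to bear on its recovery. Pvt1 was not. It lay at -0.28 in the MKRN1-labelled RIP, 0.88 in the FLAG:Ctrl RIP and 0.05 in the IgG RIP. Taking its own input from each anti-FLAG RIP first, the MKRN1-labelled line differed from the FLAG:Ctrl line by -1.95 for Malat1, -0.51 for Tug1, -1.16 for Pvt1 (0.11 on its dim probe set) and 0.16 for Dleu2. The difference of Malat1 was thus larger than between the RIPs alone, and that of Tug1 smaller.

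The inputs compare steady-state RNA of the lines. Malat1 was 0.23 higher on the log2 scale in the MKRN1-labelled input than in the FLAG:Ctrl input, Pvt1 0.42 higher and Dleu2 0.04 higher, and Tug1 had a difference of -0.49. None of the 4 reached 2-fold, which 0.572% of all genes did upward and 0.497% downward. The lower share of Malat1 in the MKRN1-labelled RIP therefore stood beside a slightly higher signal in the lysate it came from. The 2 background RIPs differed, IgG minus FLAG:Ctrl, by -0.29 for Malat1, 0.02 for Tug1, -0.41 for Pvt1 and 0.12 for Dleu2, where the SD over all genes was 0.21. At 2-fold, 0 of the 4 differed, as 0.181% of all genes did upward and 0.125% downward.

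Other long noncoding RNAs were more often higher than lower, by a margin that depended on scaling. Among 671 further genes that RefSeq types as long noncoding RNA, 17 were at least 2-fold higher than in both background RIPs and 4 lower, where 0.732% and 3.13% of all genes were, and with arrays centred on their medians 10 were higher and 6 lower. Their median log2 differences from the FLAG:Ctrl and IgG RIPs were 0.20 and 0.18 as deposited, beside 0.06 and 0.05 over all genes, and -0.00 and 0.01 with arrays centred, beside -0.15 and -0.13. Malat1 and Tug1, lower under every scaling run, thus lay below the middle of this class. Of all 19937 genes, 146 were higher and 624 lower than both background RIPs as deposited, or 72 and 986 when centred. Of 11071 protein-coding genes with a mean signal at or above 5.76, 85 were higher and 610 lower, or 38 and 961 when centred. Of the 217 further long noncoding RNA genes at that signal, 14 were higher and 4 lower, or 8 and 6 when centred. The 4 lower genes were Gdap10, Rian, B230354K17Rik and Gm10644, named after their values were seen. Their differences from the FLAG:Ctrl RIP ran from -1.81 for Gdap10 to -1.28 for Gm10644, so Malat1 at -1.71 lay within the range of these few.

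**Figure D3:**
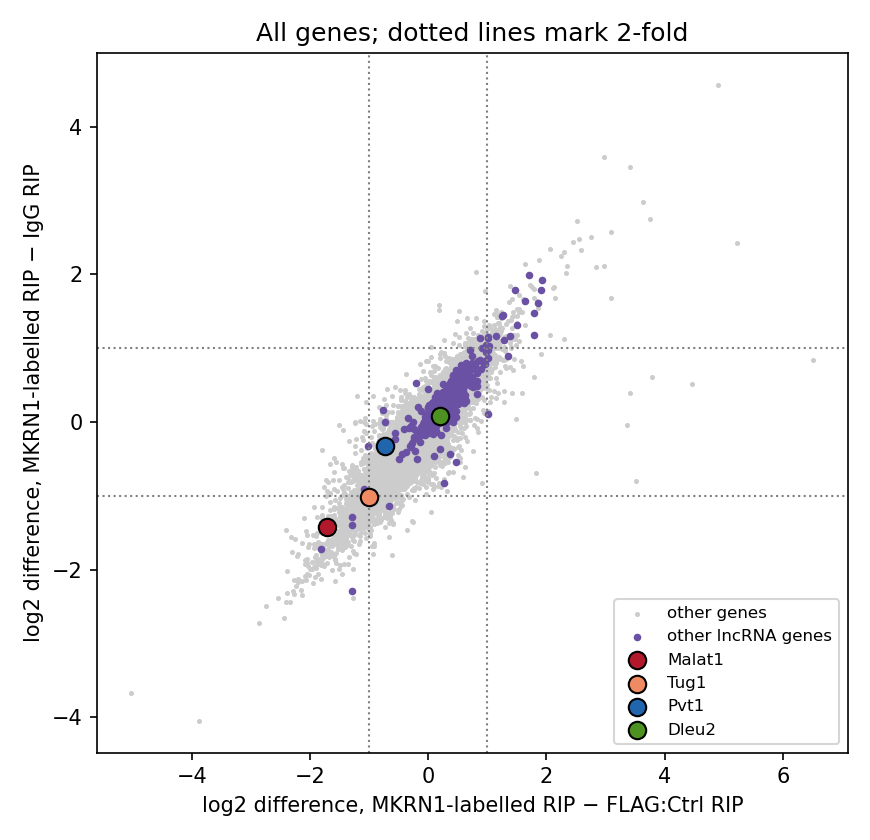
Log2 difference of the MKRN1-labelled RIP from the FLAG:Ctrl RIP (horizontal axis) and the IgG RIP (vertical axis) for 19937 genes, with dotted lines at 2-fold. The 4 genes are in colour, 671 other long noncoding RNA genes in purple and the remaining genes in grey. Malat1 lies in the lower left corner at -1.71 and -1.43, while the purple points have medians of 0.20 and 0.18 as deposited, which centring of the arrays moves to -0.00 and 0.01; both axes use the same MKRN1-labelled array.

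Companion groups of noncoding RNAs were set beside the 4 genes. Of 64 other regulatory long noncoding RNAs listed, 17 were measured. Among the 17, 1 was higher (0 with arrays centred) and 0 lower than both background RIPs, where 0.732% and 3.13% of all genes were as deposited. The higher gene was Platr26, named for its pluripotency-associated expression, with a log2 signal of 8.45 in the MKRN1-labelled RIP, 7.30 in the FLAG:Ctrl RIP and 7.28 in the IgG RIP, and 6.79 and 6.72 in the MKRN1-labelled and FLAG:Ctrl inputs. Firre, a nuclear RNA that organises contacts between chromosomes, had differences of 0.65 and 0.69 from the FLAG:Ctrl and IgG RIPs. Morrbid had 0.45 and 0.51, and Dubr had 0.41 from each.

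Among imprinted long noncoding RNAs, Rian and Meg3 were also lower in the MKRN1-labelled RIP. Rian, transcribed from the maternal copy of the Dlk1-Dio3 cluster, had a log2 signal of 4.14 in the MKRN1-labelled RIP, 5.43 in the FLAG:Ctrl RIP and 6.43 in the IgG RIP, against 7.35 in the MKRN1-labelled and 9.24 in the FLAG:Ctrl input. Its neighbour Meg3 differed by -1.08 and -0.91 from the background RIPs and by -1.49 from input, and Airn by 0.00 and 0.08 from the background RIPs. Of these 3 measured genes, 1 was lower than both background RIPs, or 2 with arrays centred, where 3.13% of all genes were as deposited. With arrays centred, 986 of 19937 genes were lower than both, against 624 as deposited. Unlike Malat1, Rian and Meg3 were lower in the MKRN1-labelled than in the FLAG:Ctrl input, with log2 differences of -1.89 and -0.72.

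Of 7 measured snoRNA host transcripts, 2 were higher than both background RIPs and 0 lower, where 0.732% and 3.13% of all genes were. Snhg15 had differences of 1.90 from the FLAG:Ctrl and 1.78 from the IgG RIP, and Snhg17 1.70 and 2.00. Both were also higher in the MKRN1-labelled than in the FLAG:Ctrl input, by 0.85 and 0.98 on the log2 scale. Against its own input Snhg15 had 0.73 in the MKRN1-labelled, -0.32 in the FLAG:Ctrl and -1.05 in the IgG RIP. Snhg17 had 1.25, 0.53 and -0.75 in the same order. Snhg5 differed by -0.31 and -0.33, and Dancr by -0.24 from each. Among 5 measured noncoding RNAs of other ribonucleoproteins, 0 were at least 2-fold higher or lower than both background RIPs, where the same 0.732% and 3.13% of all genes were. Rn7sk, the 7SK RNA that restrains transcription elongation, had -0.55 from each background RIP, and Rpph1, the RNA subunit of RNase P, had 0.22 and 0.95. The telomerase RNA Terc had 0.27 and 0.67, and the vault RNA Vaultrc5 0.24 and 0.36. Rpph1 and Terc were nevertheless below their own input in all 3 RIPs, farthest in the IgG RIP (-1.36 and -0.82). In the MKRN1-labelled RIP they had -0.42 and -0.15 against input, where Rn7sk had -0.55 and Vaultrc5 0.27.

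**Figure D4:**
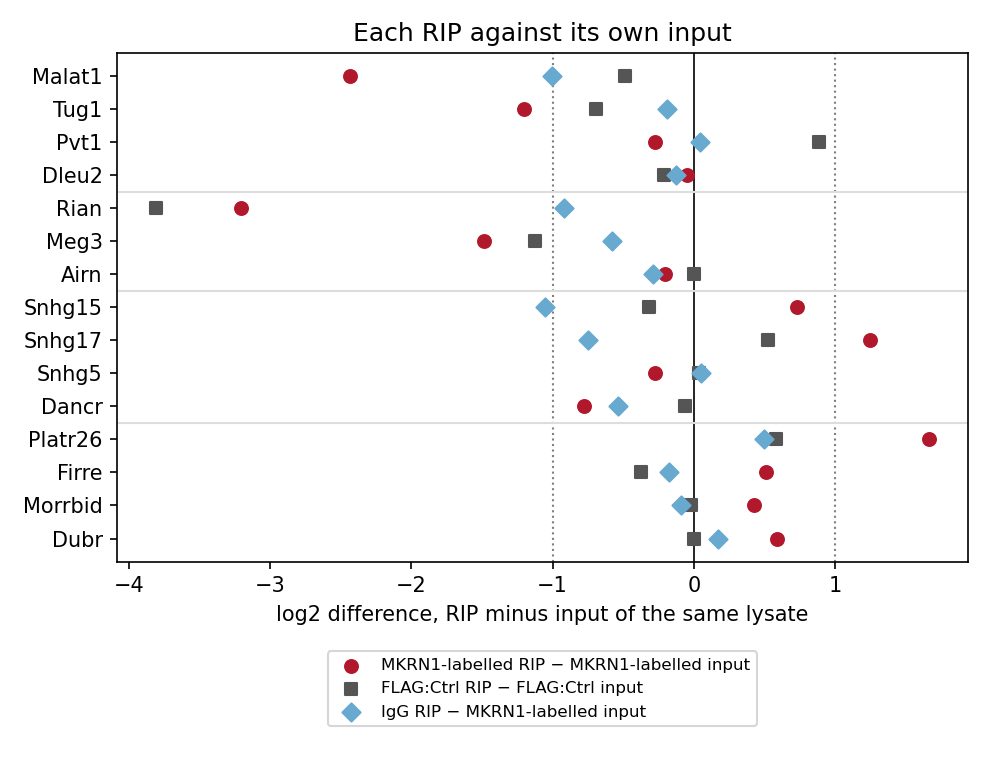
Log2 difference of each RIP from the input of its own lysate (horizontal axis) for the 4 genes and, beneath them, named imprinted, snoRNA host and other regulatory long noncoding RNAs (vertical axis), 1 array per point, with dotted lines at 2-fold. Malat1 lies left of 0 in all 3 RIPs and farthest in the MKRN1-labelled RIP (-2.43), as does Meg3 (-1.49), Rian lies left of 0 in all 3 and farthest in the FLAG:Ctrl RIP (-3.81, against -3.21 in the MKRN1-labelled RIP), and Platr26 lies right of 0 in all 3.

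The microRNA genes inside Dleu2 were dim as well. Mir16-1 had a log2 signal of 4.35 in the MKRN1-labelled RIP, 4.06 in the FLAG:Ctrl RIP and 3.98 in the IgG RIP, with 4.27 and 4.00 in the MKRN1-labelled and FLAG:Ctrl inputs. Mir15a stayed between 5.00 and 5.11 on all 5 arrays. Of the 4 family genes, Mir15b and Mir16-2 included, 0 reached 2-fold against a background RIP, with scores from 0.01 to 0.29, where the score is the smaller in size of the 2 differences. Spryd7 and Dleu7, the nearest measured protein-coding genes on either side of Dleu2, had differences of 0.00 from the FLAG:Ctrl RIP.

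None of the neighbours of the other 3 genes differed by 2-fold from a background RIP. Next to Malat1, Ltbp3 had 0.10 and 0.27 and Frmd8 0.55 from each background RIP. Next to Tug1, Morc2a had -0.59 and -0.45 and Smtn 0.02 from each. Beside Pvt1, Gsdmc had 0.23 and 0.30. Myc, which encodes the transcription factor on the other side of Pvt1, had a log2 signal of 9.45 in the MKRN1-labelled RIP, 10.15 in the FLAG:Ctrl RIP and 9.0 in the IgG RIP, and 8.55 and 9.80 in the MKRN1-labelled and FLAG:Ctrl inputs. Between the inputs Myc thus differed by -1.25 where Pvt1 differed by 0.42. Of 6 Myc family genes, all with a mean signal at or above 5.76, 1 was lower than both background RIPs. Of all genes 3.13% were, and of protein-coding genes at that signal 5.51%. The lower gene was the repressor gene Mga at -1.49 from each. Mycl had 0.78 and 0.51, Mxd3 0.13 and 0.15, and Max -0.16 and -0.12.

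Messenger RNAs for proteins that act on these RNAs were also examined. In nuclear speckles, where Malat1 collects, 3 of 17 measured genes (17.6%) were lower than both background RIPs, against 3.13% of all genes and 5.51% of the 11071 protein-coding genes with a mean signal at or above 5.76, as all 17 had, and the list medians were -0.30 and -0.32. With arrays centred 4 were lower, and after quantile normalization 1 was lower and the medians were -0.17 each. Of the 11071 protein-coding genes, 610 were lower as deposited, 961 with arrays centred and 407 after quantile normalization. The 3 lower as deposited were the splicing factor gene Sf3b1 (-1.49 and -1.50), and the speckle scaffold genes Son (-1.37 and -1.19) and Srrm2 (-1.12 and -1.05). The kinase gene Prpf4b had -0.83 and -0.84. Among 18 genes for Malat1 3′ end processing and RNA methylation, 2 were lower (11.1%, beside the same 5.51%), the methylation cofactor gene Zc3h13 (-1.94 and -1.71) and the RNase P subunit gene Pop4 (-1.43 and -1.26), and the count was 5 with arrays centred and 1 after quantile normalization. Elac2, which encodes RNase Z, had -0.95 and -0.90, and the RNase P subunit gene Rpp21 had 0.97 from each.

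Each of 3 further lists had 1 lower gene and 0 higher, and after quantile normalization 0 lower. With arrays centred the Polycomb list had 3 lower, and the other lists 1 each. Of 11071 protein-coding genes with a mean signal at or above 5.76, 961 were lower when centred and 407 after quantile normalization. All measured genes of the 3 lists were at or above 5.76. The shares as deposited, 9.09%, 6.25% and 6.67%, lay near the 5.51% of such protein-coding genes. Of 11 measured paraspeckle protein genes the lower one as deposited was Nudt21, a polyadenylation factor gene, at -1.14 and -1.40. Tardbp had -0.47 and -0.37, Taf15 -0.38 and -0.33 and Cpsf6 -0.34 and -0.38. Of 16 nuclear exosome genes it was the helicase gene Mtrex at -1.23 and -1.31, with Zfc3h1 at -1.07 and -0.81, Exosc10 at -0.91 and -0.70 and Exosc8 at -0.55 and -0.65. Of 15 Polycomb and LSD1 genes it was Mtf2 at -1.07 from each, with Ezh2, the methyltransferase gene, at -0.84 and -0.93, Kdm1a at -0.82 and -0.90 and Jarid2 at -1.13 and -0.72.

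Profiles over the 5 arrays were compared for Malat1 and Tug1, the genes whose range passed 1. The measure was the Euclidean distance between mean-centred log2 values, over 11502 genes whose mean was 5.76 or more, and with 5 arrays it is a description only. Nearest to Malat1 were the histone H4 gene H4c6 at 0.19 (r = 0.996 over 5 arrays), the RNA-binding protein gene Ptbp3 at 0.30 and another histone H4 gene, H4c4, at 0.40, and 5 genes lay within 0.5. H4c6 had a log2 signal of 8.51 in the MKRN1-labelled RIP, 10.00 in the FLAG:Ctrl RIP and 9.72 in the IgG RIP, with 10.86 and 10.59 in the MKRN1-labelled and FLAG:Ctrl inputs. Histone genes have near-identical copies, so the values of single ones are uncertain. Nearest to Tug1 were Gm5617 at 0.17, the nuclear pore gene Nup214 at 0.20 and the long noncoding RNA gene AU015836 at 0.23, and 113 genes lay within 0.5. The distance is not scaled to the range of a profile, which was 2.43 for Malat1 and 1.69 for Tug1, so the 2 counts were not compared.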

How the data were processed

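RIP and input RNA of 5 samples was hybridised to arrays after biotin labelling by the standard Affymetrix protocol, per the labels. The authors' deposited table holds log2 values, 1 column per sample, running from 2.56 to 14.4; the scale was read from the values, and the sources used here do not give the background correction, summarisation or normalization. Of 34760 probe sets, the platform annotation names 21640 for 1 gene and 1321 for several, and 11799 are not listed in it; 21553 matched the RefSeq table of GRCm38.p6, which updated symbols. The brightest probe set by mean stood for each of 19937 genes, with no level filter. Array medians ran from 5.68 to 5.88 and no scaling was applied. With 1 array per group no test was run. Between 7.48% and 19.9% of probe sets had equal values (within 1e-06) on a pair of arrays. Signal on arrays has no read depth, and their number limits the precision. Named were the genes of the set, their neighbours and hosted microRNA genes, Mkrn1, up to 4 genes per list with the largest score, and the 3 nearest profiles for genes ranging over 1 or more. Genes named after their values were seen are marked so. Members and lists were chosen with earlier results of these data known. The counting code was checked on simulated data with planted differences well beyond 2-fold and equal noise on every array. That check does not show how reliable calls near 2-fold are. Python 3.11.15, numpy 2.4.6, pandas 2.3.3 and statsmodels 0.14.6 (lowess, span 0.3) were used. Alternatives are given in the closing section.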

Additional observations from a re-analysis of the deposited data

Results flagged for a closer look

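Pvt1 moved in opposite directions from the input of the same lysate in the anti-FLAG RIPs of the 2 lines. The log2 difference was -0.28 in the FLAG:MKRN1 line and 0.88 in the FLAG:Ctrl line, so the lines differed by -1.16. Each value comes from 1 array against 1 array, on the brighter of 2 probe sets, and the difference was not tested. With the median over both probe sets the values against input were -0.10 in the FLAG:MKRN1 line and 0.43 in the FLAG:Ctrl line, and on the dim probe set alone the lines differed by 0.11.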

How the results depend on the processing

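No paired analysis was possible because each group has 1 array. Of 172 values of single genes under alternatives, 166 stayed on their side of 2-fold, and of 144 counts, 129 stayed the same. These totals do not measure stability, because many of the values could not move. The median over probe sets left genes with 1 probe set unchanged. Raising lower values to 5.76 left Malat1, Tug1 and Pvt1 unchanged, Dleu2 was too dim to reach 2-fold, and many counts started at 0. Leaving aside values with own input taken first, the difference of Malat1, MKRN1-labelled RIP first, ran from -1.92 to -1.45 against the FLAG:Ctrl RIP. It ran from -1.60 to -1.14 against the IgG RIP and -2.54 to -2.27 against input. Centring each array on its median gave 2 genes of the set lower than the FLAG:Ctrl RIP, 2 lower than both background RIPs and 0 lower in the IgG RIP than in input. Quantile normalization, removal of the trend with signal level, and centring on probe sets at or above 5.76, the last chosen after seeing the data, each gave 1 gene lower than the IgG RIP, with Tug1 at -0.81, -0.87 and -0.91. At 1.5-fold, 3 were lower than the FLAG:Ctrl RIP, 2 lower than both, and 1 higher and 1 lower in the FLAG:Ctrl RIP than in input. At 4-fold, 0 were lower than the FLAG:Ctrl RIP, the IgG RIP or both, 1 gene of the MKRN1-labelled RIP and 0 of the IgG RIP were lower than in input. The shares of all genes at 1.5-fold and 4-fold were not computed, so these counts have no background beside them. Taking each RIP's own input first, also chosen after seeing the data, gave -1.16 for Pvt1 and -1.95 for Malat1 between the anti-FLAG RIPs. These values also use both inputs, unlike the differences between RIPs alone. The cause of these changes was not tested.

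Over all genes, centring on array medians moved the median difference from the FLAG:Ctrl RIP to -0.15, against 0.06 as deposited, and centring on the brighter probe sets moved it to 0.17. Centring on array medians also gave 72 genes higher and 986 lower than both background RIPs, against 146 and 624 as deposited. Against the FLAG:Ctrl RIP the counts were 125 and 1354, against 223 and 830, and against the IgG RIP 109 and 1209, against 213 and 804. Higher genes made up 8.45% of calls against the FLAG:Ctrl RIP when centred, 32.9% after quantile normalization and 21.2% as deposited; against the MKRN1-labelled input they made up 21.7% of calls in the MKRN1-labelled RIP when centred and 32.7% as deposited. In the FLAG:Ctrl RIP against its input they made up 81.8% when centred and 68.7% as deposited. Dleu2 and the other Pvt1 probe set were too dim to show a difference in recovery.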
